A study of Homo sapiens with 9 samples.

Results

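Lysyl oxidases and a group of secreted matrix proteins were followed across MCF10A cells in which RND1 was targeted by either of 2 short hairpins. The set held 10 genes, LOX, LOXL1, LOXL2, LOXL4, COL4A1, COL4A2, TNC, SPARC, THBS1 and TGFBI, and all probes annotated with these symbols were taken, 12 of the 48803 probes on the array. The genes were chosen from earlier results on these same 9 arrays, so their levels and changes are given below as a description and carry no test. A limma model over all 8931 measurable genes supplied each change, its standard error (SE) and the call, which is an adjusted p under 0.05 after Benjamini-Hochberg correction. "Rose" and "fell" are used only for changes that passed that call.

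MCF10A is an immortalised, non-tumorigenic human breast epithelial line, and the product of RND1 is a GTP-binding protein with effects on actin organisation. All 3 groups, scramble control, RND1-sh-34 and RND1-sh-35, came from this line after lentiviral delivery of a hairpin and puromycin selection, with 3 samples each. The hairpin sequences, the harvest time and the cultures from which replicates came were not stated in the labels. The errors therefore reflect spread among these arrays alone, whose origin may be technical, and 3 arrays a group limit the precision.

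The deposited signal is the brightness of a probe on a linear scale. A probe counted as above background at a detection p under 0.01, and 11473 to 12902 probes per array did so. Array medians lay between 46.6 and 53.4, and the dimmest signal to pass that limit on any array was 110.1. Normalised arrays of the same group correlated across genes by 0.993 to 0.994 (Pearson's r), and arrays of different groups by 0.960 to 0.973, where genes are not independent replicates. The single RND1 probe was above background on 0 of 9 arrays (signals 27.7 to 49.6, lowest detection p 0.165), so the knockdown could not be checked on these arrays.

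Lysyl oxidases are secreted copper enzymes that oxidise lysine residues in collagen and elastin, and the aldehydes so formed cross-link the fibres. Collagen IV forms the network of the basement membrane on which mammary epithelium rests, and its most widespread form is built from the COL4A1 and COL4A2 chains. Tenascin C (TNC), SPARC and thrombospondin 1 (THBS1) are matricellular proteins, which modulate adhesion and growth factor signals more than they carry load, and TGFBI is an adhesive matrix protein induced by TGF-beta.

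Of the 10 genes, 7 were measurable and 3 were not. LOX, COL4A1, COL4A2, SPARC, THBS1 and TGFBI each had 1 probe, above background on 9 of 9 arrays. TNC had 2 probes, of which the brighter was above background on 9 of 9 arrays and the dimmer on 2. LOXL1, LOXL2 and LOXL4 were above background on 0 of 9 arrays with any probe. LOX was therefore the only one of these lysyl oxidases with a measured level.

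Against scramble, 4 of the 7 measurable genes rose with sh-34 and 1 fell. Over all genes tested, 19.0% rose and 18.5% fell in that comparison. With sh-35, 4 rose and 0 fell, beside 20.4% and 21.4% of all genes. Between the hairpins, 2 were higher with sh-35 and 1 was lower, beside 20.7% and 22.0% of all genes. The median log2 change of the 7 was 0.48 with sh-34 and 0.43 with sh-35, where the median of all genes was 0.02 and −0.02. Since the genes were picked on these contrasts, nothing is read from those shares or medians. LOX, COL4A1 and COL4A2 rose with both hairpins, whereas SPARC rose with sh-34 and was not past the call with sh-35, and THBS1 fell with sh-34 and rose with sh-35.

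**Figure D1:**
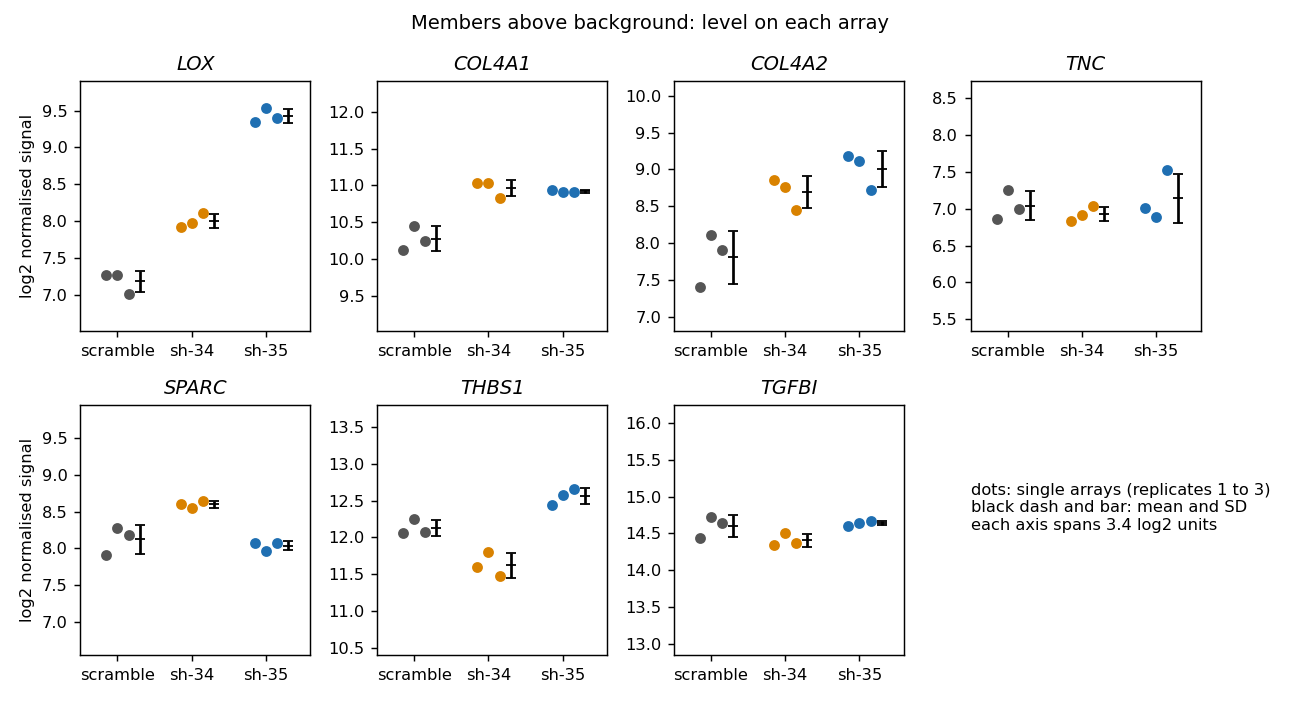
Log2 normalised signal (y axis) of the 7 measurable genes on each array, by group (x axis); dots are single arrays, the black dash and bar are the mean and SD of 3 samples, and every axis spans the same number of log2 units. The LOX groups stand apart in the order scramble, sh-34, sh-35, whereas the 3 TNC groups overlap.

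LOX had the largest change of the set. Its probe read 197, 173 and 143 on the scramble arrays, 265, 267 and 299 with sh-34, and 654, 821 and 712 with sh-35. No group overlapped another, and the sh-35 arrays were the highest by a wide margin. On the normalised log2 scale the levels were 7.18 ± 0.14 (SD, n = 3) in scramble, 8.00 ± 0.10 with sh-34 and 9.43 ± 0.10 with sh-35. LOX rose by 0.82 on the log2 scale with sh-34 (SE 0.10, 1.77-fold) and by 2.25 with sh-35 (SE 0.10, 4.76-fold). It was also higher with sh-35 than with sh-34, by 1.43 (SE 0.10, 2.69-fold). An offset of 16 is added before the logarithm, which understates the change of dim probes. The deposited signals still hold the background that the correction removes, which understates a change as well. Their ratios of geometric means were 1.63 with sh-34 and 4.28 with sh-35, below the fitted folds. Leaving out any 1 sample kept the sh-35 change between 2.17 and 2.30.

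The bases just upstream of the most distal of 3 annotated LOX starts are shown because LOX moved furthest. They are the RefSeq sequence of GRCh38.p14, chr5:122078260-122078509 on the minus strand, and capitals mark ACGTG, the core of the hypoxia response element, or its complement.
LOX: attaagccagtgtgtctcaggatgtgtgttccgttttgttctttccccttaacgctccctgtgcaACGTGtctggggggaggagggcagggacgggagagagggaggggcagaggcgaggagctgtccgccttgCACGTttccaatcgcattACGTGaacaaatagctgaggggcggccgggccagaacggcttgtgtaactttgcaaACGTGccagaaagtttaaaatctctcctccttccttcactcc
RefSeq windows of 300 bases, 250 before and 50 after a start, were matched for 9 of the 10 genes. The letters ACGTG, searched on both strands with overlaps counted, occurred 4 times in this LOX window, once in the window of each of its other 2 starts, and in 0 of the other 8 genes' windows. Of all 35116 windows, 21.4% held the letters at least once and 0.843% at least 4 times. The limit of 4 is the count in this LOX window itself, and other motifs were searched too. Nothing is read from that share. The matches are a description of these letters and say nothing of a factor's binding.

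The other lysyl oxidases gave no level that could be compared. LOXL1, which acts mainly on elastic fibres, had 1 probe between 22.2 and 37.2 on the 9 arrays and another between 40.5 and 71.6. The second read 54.7, 68.5 and 71.6 with sh-35, and its lowest detection p on any array was 0.0487, short of the limit. The LOXL2 probe lay between 22.5 and 38.1, and the LOXL4 probe between 32.0 and 53.6. The first LOXL1 probe and the LOXL2 probe lay below every array median, and no fold is given for any of these probes. LOXL3, listed with the other modifying enzymes, was above background on 0 arrays as well.

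**Figure D2:**
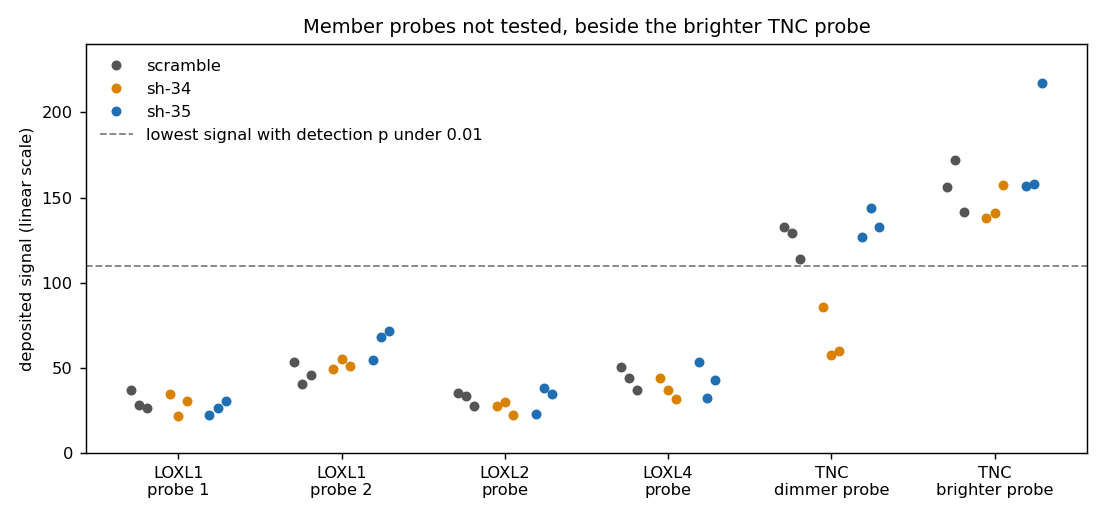
Deposited signal (y axis, linear) of the probes of LOXL1, LOXL2 and LOXL4 and of both TNC probes (x axis), one dot per array, coloured by group; the dashed line is the dimmest signal that passed detection on any array, 110.1. Every LOXL dot lies below the line, and the dimmer TNC probe lies below it only with sh-34. The line is not the limit of each array, and that probe passed detection on only 1 scramble and 1 sh-35 array.

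COL4A1, the alpha-1 chain of collagen IV, rose to nearly the same level with both hairpins. Its signals were 1310.1, 1473 and 1163 in scramble, 2104, 1987 and 1817 with sh-34, and 1861, 2021 and 1926 with sh-35. All 6 hairpin arrays were above all 3 scramble arrays, and the hairpin groups overlapped each other. The log2 levels were 10.27 ± 0.17, 10.97 ± 0.11 and 10.92 ± 0.02 (SD, n = 3 each). The change was 0.69 with sh-34 (SE 0.10, 1.62-fold) and 0.65 with sh-35 (SE 0.10, 1.57-fold), and the difference of −0.04 between the hairpins (SE 0.10) was not past the call. COL4A1 was also the only gene of the set in the authors' deposited table of 358 probes. The authors' deposited table gives it a ratio of 1.50 with p = 0.00102 for sh-34 and 1.48 with p = 0.00125 for sh-35. Geometric means of the deposited signals gave the same ratios, 1.50 and 1.48, so the authors' ratios are not a separate measurement.

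COL4A2, the alpha-2 chain, which assembles with COL4A1 in collagen IV protomers, rose with both hairpins too. Its signals were 215, 295 and 243 in scramble, 483, 439 and 372 with sh-34, and 582, 619.6 and 461 with sh-35. Again every hairpin array exceeded every scramble array, but the spread within groups was wider than for COL4A1, and 1 sh-35 array fell within the sh-34 range. On the log2 scale the levels were 7.81 ± 0.36, 8.69 ± 0.22 and 9.01 ± 0.25 (SD, n = 3 each). The change was 0.89 with sh-34 (SE 0.18, 1.85-fold) and 1.20 with sh-35 (SE 0.18, 2.30-fold). The difference of 0.32 between the hairpins (SE 0.18) was not past the call.

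The collagen IV genes lie head to head, and the stretch between their starts is shown because both genes rose together with each hairpin. It holds 126 bases of RefSeq GRCh38.p14, chr13:110307158-110307283 on the plus strand, and is 80.2% G and C. COL4A1 starts at its left end and is read leftwards, and COL4A2 starts at its right end.
COL4A1-COL4A2: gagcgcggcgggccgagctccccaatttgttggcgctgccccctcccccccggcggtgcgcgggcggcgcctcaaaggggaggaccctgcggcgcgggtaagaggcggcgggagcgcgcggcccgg
The remaining letters searched were TGANTCA, the AP-1 site, CATTCC, the TEAD site, CAGAC, the SMAD box, and TATAAA, the TATA box. None of the 4 occurred in the window of COL4A1, COL4A2 or TGFBI. CATTCC was in the windows of SPARC and THBS1, and in 14.0% of all windows. CAGAC was in 5 of the 9 windows, those of LOX, LOXL1, TNC, SPARC and THBS1, and in 45.3% of all windows. TGANTCA and TATAAA were in 0 of the 9, and in 7.71% and 11.5% of all windows.

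SPARC, a collagen-binding matricellular protein, was higher with sh-34 than in either other group. Its signals were 293, 329 and 292 in scramble, 409, 380.3 and 425 with sh-34, and 290.3, 299.9 and 305 with sh-35. The sh-34 arrays stood above all others, and the sh-35 arrays lay within or just under the scramble range. The log2 levels were 8.12 ± 0.19, 8.60 ± 0.05 and 8.04 ± 0.06 (SD, n = 3 each). SPARC rose by 0.48 with sh-34 (SE 0.10, 1.39-fold), and its change of −0.08 with sh-35 (SE 0.10) was not past the call. Directly compared, sh-35 was lower than sh-34 by a log2 difference of −0.56 (SE 0.10, 1.47-fold).

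THBS1, an adhesive glycoprotein that can activate latent TGF-beta, moved in opposite directions with the hairpins. Its signals were 5002, 5029 and 4207 in scramble, 3109, 3403 and 2819 with sh-34, and 5244, 6213 and 6373 with sh-35. The 3 groups did not overlap, with sh-34 lowest and sh-35 highest. The log2 levels were 12.13 ± 0.10, 11.62 ± 0.17 and 12.56 ± 0.11 (SD, n = 3 each). THBS1 changed by −0.51 with sh-34 (SE 0.10, 1.42-fold lower) and by 0.43 with sh-35 (SE 0.10, 1.35-fold higher), and was higher with sh-35 than with sh-34 by 0.94 (SE 0.10, 1.92-fold). With arrays scaled to a common median in place of quantile normalisation, the sh-35 change was 0.29 and no longer past the call.

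TNC, which is scarce in most resting adult tissue and induced in wounds, was not past the call in any comparison with the probe that was tested. That probe read 156, 172 and 142 in scramble, 138, 141 and 157 with sh-34, and 157, 158 and 217 with sh-35. The groups overlapped throughout, and 1 sh-35 array stood above the rest. The log2 levels were 7.04 ± 0.20, 6.93 ± 0.10 and 7.14 ± 0.34 (SD, n = 3 each), and the changes were −0.11 with sh-34 and 0.10 with sh-35 (SE 0.15 each). Without the highest sh-35 array the sh-35 change was −0.090.

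The dimmer TNC probe read 133, 129 and 114 in scramble, 86.0, 57.9 and 60.1 with sh-34, and 127, 144 and 133 with sh-35. All sh-34 arrays lay below all others with this probe. It was above background on 1 of 3 scramble, 0 of 3 sh-34 and 1 of 3 sh-35 arrays, too few to be tested under the filter used. Under a looser filter chosen after seeing the data, detection p under 0.05 in at least 3 arrays, its log2 level was 6.66 ± 0.11 in scramble, 5.53 ± 0.36 with sh-34 and 6.67 ± 0.04 with sh-35 (SD, n = 3 each). Since no sh-34 array was above background, the ratio has only a bound, and scramble and sh-35 were each at least 1.05-fold higher than sh-34. Each bound is the group's mean over the lowest signal called above background on the sh-34 arrays. The brighter probe gave −0.11 (1.08-fold lower with sh-34), which lies within the bound, so a difference between the probes could not be shown. No probe sequences were at hand, so the transcripts each probe reads were not examined.

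TGFBI had signals of 23899, 27202 and 25113 in scramble, 20755, 23652 and 21673 with sh-34, and 24426, 24467 and 25962 with sh-35. All sh-34 arrays lay below all others in the deposited signal, and scramble and sh-35 overlapped. After normalisation the sh-34 and scramble groups overlapped as well. The log2 levels were 14.60 ± 0.15, 14.41 ± 0.09 and 14.64 ± 0.03 (SD, n = 3 each). Its changes of −0.19 with sh-34, 0.04 with sh-35 and 0.23 between the hairpins (SE 0.09 each) were not past the call. Without scramble replicate 1 the sh-34 change was −0.29 and the difference between the hairpins 0.24, both past the call, and the sh-35 change was −0.046. The brightest probe of each array read 31021 to 33822, and whether the TGFBI probe was near saturation was not tested.

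**Figure D3:**
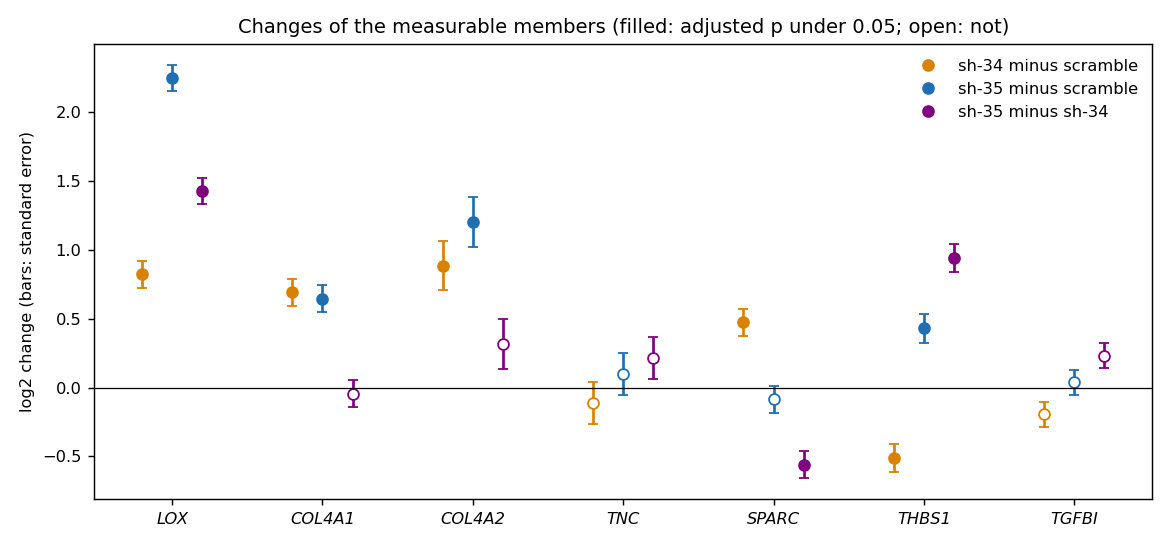
Log2 change (y axis) of the 7 measurable genes (x axis) for each hairpin against scramble and for sh-35 against sh-34; bars are the standard error, filled points are past an adjusted p of 0.05 and open points are not. LOX reaches 2.25 with sh-35, and THBS1 is below 0 with sh-34 and above it with sh-35.

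Profiles over the 9 samples were compared by the root mean square difference of log2 values, each gene centred on its own mean. Among the set, TNC and TGFBI were nearest to each other at 0.17, followed by COL4A1 and COL4A2 at 0.28. The distance is not scaled to the size of a change, so genes that change little lie near each other. Neither TNC nor TGFBI had a change past the call. LOX was the farthest member from COL4A1, TNC, SPARC, THBS1 and TGFBI, and its greatest distance was 1.04, to SPARC. Over all tested genes outside the set, the 5 nearest to LOX were SERPINA3, a serine protease inhibitor, at 0.16, FPR1, a formyl peptide receptor, at 0.20, MND1, a meiotic recombination factor, at 0.21, TOP2A, a DNA topoisomerase, at 0.22, and IFIT1, an interferon-induced gene, at 0.22. SERPINA3, the nearest, had log2 changes of 0.58 with sh-34 and 2.22 with sh-35. The nearest genes to the others were HCFC1R1 for COL4A1 (0.08), EVI5L for COL4A2 (0.19), PTPDC1 for TNC (0.10), IMPDH1 for SPARC (0.07), FHOD1 for THBS1 (0.06) and TMEM98 for TGFBI (0.05). These distances describe likeness over these arrays only.

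Further matrix genes, 129 in 6 lists, were examined beside the set. Of these, 58 were measurable and tested. With sh-34, 18 rose, 15 fell and 25 were not past the call, with a median log2 change of 0.00. With sh-35, 18 rose, 13 fell and 27 were not past it, with a median of 0.10. So 31.0% of them rose and 25.9% fell with sh-34, beside 19.0% and 18.5% of all genes, and 31.0% rose and 22.4% fell with sh-35, beside 20.4% and 21.4%. Between the hairpins, 17 were higher with sh-35, 10 lower and 31 not past the call. That is 29.3% higher and 17.2% lower, beside 20.7% and 22.0% of all genes. The lists were drawn up with earlier results of these arrays known, and nothing particular to them is read from those shares. The same shares of all genes stand beside the counts of each list below, from which nothing is read either.

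Enzymes that process or modify collagen and elastin, the class to which LOX belongs, gave 2 rises and 5 falls with sh-34 among 17 tested, with a median log2 change of −0.10. P3H2, a prolyl 3-hydroxylase, fell by 0.88 (SE 0.09, adjusted p = 1.82e-05), and PLOD2, a lysyl hydroxylase whose product sets the type of cross-link, fell by 0.56 (SE 0.12, adjusted p = 0.0034). P4HA2, a prolyl 4-hydroxylase subunit, fell by 0.41 (SE 0.08, adjusted p = 0.00244), although another of its probes gave 0.11 and was not past the call. With sh-35, 3 rose and 4 fell, with a median of −0.03. PCOLCE2, which enhances procollagen C-proteinase, was not past the call with sh-34 and rose by 1.21 with sh-35 (SE 0.10, adjusted p = 2.42e-06). COLGALT1, which adds galactose to collagen, rose by 0.51 (SE 0.08, adjusted p = 0.000289). P3H2 fell by 0.81 (SE 0.09, adjusted p = 2.02e-05), and P4HA1, another prolyl 4-hydroxylase subunit, fell by 0.73 (SE 0.08, adjusted p = 1.85e-05), and it fell by 0.35 with sh-34 (adjusted p = 0.00451). PCOLCE2 was higher with sh-35 than with sh-34 by 1.24 (adjusted p = 2.32e-06).

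Among other basement membrane proteins, the partners of collagen IV, 4 rose and 1 fell with sh-34 and 2 rose and 3 fell with sh-35, of 11 tested. The 5 calls with sh-34 became 3 without scramble replicate 1, and 2 without scramble replicate 3, sh-34 replicate 1 or sh-34 replicate 3. LAMC1, the laminin gamma-1 chain, rose by 0.54 with sh-35 (SE 0.08, adjusted p = 0.000342), and LAMB1, the beta-1 chain, by 0.49 (SE 0.09, adjusted p = 0.000956), although the other LAMB1 probe was not past the call at 0.16. With sh-34 they rose by 0.27 (adjusted p = 0.025) and 0.28 (adjusted p = 0.0273), and the other LAMB1 probe gave 0.22, not past the call. The LAMB1 call with sh-34 was lost in 4 of 11 alternative settings, median scaling among them. It was also lost in 4 of the 9 fits that left out 1 sample. COL18A1 was above background on 3 of 3 sh-34 arrays and on 0 of 6 others. It passed the filter through the sh-34 arrays alone, and its rise with sh-34, counted above, rests on scramble values below background. COL18A1 was at least 1.17-fold higher with sh-34 than in scramble, a bound that was not tested. LAMB3 fell by 0.66 with sh-34 (SE 0.09, adjusted p = 0.000119) and by 0.45 with sh-35 (SE 0.09, adjusted p = 0.00136). The other LAMB3 probe gave 0.16 and 0.32, neither past the call, and with the mean of the probes the calls were lost (adjusted p = 0.0583 and 0.610). The list's medians were 0.18 and 0.13, the latter 0.12 without COL18A1, which was below background in both groups.

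Other collagens rose in 3 of 6 cases with sh-34 and in 4 of 6 with sh-35. COL1A2 and COL3A1 were above background on 0 arrays and COL1A1 on 1, so none of them was among the 6. COL8A1, a short-chain network collagen, rose by 1.06 with sh-34 (SE 0.09, adjusted p = 7.61e-06) and by 0.45 with sh-35 (SE 0.09, adjusted p = 0.00189), and was lower with sh-35 than with sh-34 by a log2 difference of −0.60 (adjusted p = 0.000282). COL5A2, a regulator of fibril diameter, rose with both, by 0.57 (SE 0.11, adjusted p = 0.00232) and 0.73 (SE 0.11, adjusted p = 0.000345). COL16A1 rose by 0.47 and 0.83, and COL7A1, which forms anchoring fibrils, rose by 0.77 with sh-35 (SE 0.12, adjusted p = 0.000324). COL12A1 fell by 0.52 with sh-34 (SE 0.13, adjusted p = 0.00751).

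Among other matricellular proteins, 2 rose and 2 fell with sh-34 and 3 rose and 1 fell with sh-35, of 6 tested. CCN1, an integrin ligand, fell by 0.80 with sh-34 (SE 0.10, adjusted p = 0.000129) and by 1.12 with sh-35 (SE 0.10, adjusted p = 6.7e-06). CCN3 was above background on 0 scramble arrays and passed the filter through the hairpin arrays alone. Its rises, counted above, rest on scramble values below background. CCN3 was at least 1.18-fold higher with sh-34 and at least 1.71-fold higher with sh-35, bounds that were not tested. ECM1 rose by 1.34 with sh-35 (SE 0.14, adjusted p = 1.88e-05). SPOCK1, a proteoglycan of the SPARC family, changed in opposite directions, by −0.35 with sh-34 (SE 0.09, adjusted p = 0.00859) and by 0.56 with sh-35 (SE 0.09, adjusted p = 0.000338). SPARC, named above, had the opposite order of the hairpins, with sh-34 the higher.

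Of the elastic fibre and fibronectin-type glycoproteins, elastin (ELN), which lysyl oxidases oxidise, and FBN1 were above background on 0 arrays and were not tested. The tested genes of this list rose in 5 of 9 cases and fell in 2 with each hairpin. FBLN5 is counted among these rises although it was below background in scramble. Its bounds were at least 1.04-fold higher with sh-34 and at least 1.01-fold with sh-35. FBLN1, an elastin- and fibronectin-binding protein, rose by 1.03 with both (SE 0.10, adjusted p = 1.68e-05 with sh-34 and 9.93e-06 with sh-35). LTBP4, which anchors latent TGF-beta to fibrils, rose by 0.76 with sh-34 (SE 0.14, adjusted p = 0.00129), and LTBP3, of the same family, rose by 0.51 with sh-34 (SE 0.15, adjusted p = 0.0176) and fell by 0.89 with sh-35 (SE 0.15, adjusted p = 0.000553). EFEMP1 fell by 0.36 with sh-34 (adjusted p = 0.016, lost without scramble replicate 1 or 3) and rose by 0.55 with sh-35 (adjusted p = 0.00111). The list's medians were 0.48 and 0.44, or 0.35 and 0.10 with FBLN5, which was below background in scramble, at its bound.

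Of 9 measurable receptors for the proteins of the set, 2 rose and 4 fell with sh-34, and 1 rose and 3 fell with sh-35. CD47, a receptor for THBS1, rose by 0.72 (SE 0.08, adjusted p = 5.56e-05) and 0.56 (SE 0.08, adjusted p = 0.000236). ITGA2, a collagen-binding integrin subunit, fell by 0.65 (SE 0.09, adjusted p = 0.000168) and 0.66 (SE 0.09, adjusted p = 0.000109). SDC4, a heparan sulphate proteoglycan that binds THBS1 and TNC, fell by 1.07 with sh-34 (SE 0.09, adjusted p = 9.19e-06) and was higher with sh-35 than with sh-34 by 0.89 (adjusted p = 2.35e-05). DDR1, a collagen receptor kinase, fell by 0.34 with sh-34 (SE 0.10, adjusted p = 0.0187) and by 0.45 with sh-35 (SE 0.10, adjusted p = 0.00352).

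**Figure D4:**
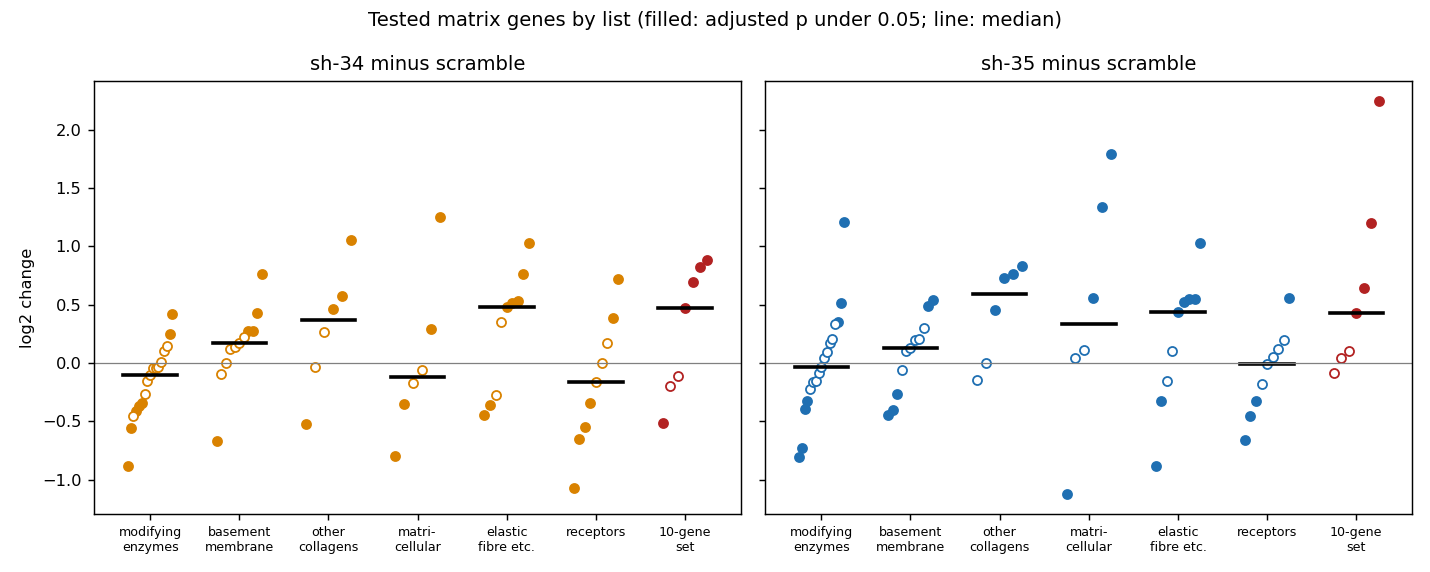
Log2 change (y axis) of every tested gene of the 6 lists and of the 7 measurable genes of the set (x axis), for sh-34 and sh-35 against scramble; filled points are past an adjusted p of 0.05 and black lines are medians. Points of genes below background in 1 group, such as CCN3, are fitted values and not bounds, and the list of other collagens has its median at 0.37 and 0.59.

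Cell type markers were read on the same arrays. All 7 mammary epithelial markers with a named probe, of 9 listed, were above background on every array, and their summed deposited signal was 34215 to 39282 in scramble, 20750 to 22450 with sh-34 and 23085 to 25140 with sh-35. With each hairpin 5 of the 7 fell, beside 18.5% of all genes with sh-34 and 21.4% with sh-35. They were CDH1, EPCAM, KRT14 and LAMB3 with both, KRT5 with sh-34 and KRT8 with sh-35. For LAMB3 another probe gave 0.16 and 0.32, neither past the call, and the calls were lost with the mean of the probes. The LAMB3 probe that fell was the brightest in the sum (log2 level 14.0 in scramble), and its part in the fall of the sum was not tested. Of 9 fibroblast markers, 4 were above background on some array (COL1A1, DCN, PDGFRA and FAP), and COL1A2, COL3A1, LUM, PDGFRB and THY1 on none. Their summed signal was 5976 to 7685 in scramble, 4707 to 5715 with sh-34 and 7410.5 to 7643 with sh-35, where scramble and sh-35 overlap. DCN fell by 0.37 with sh-34 and rose by 0.53 with sh-35, FAP fell by 0.61 with sh-35, and PDGFRA was not past the call with either. Endothelial markers were above background for 1 of 7 genes, PECAM1, with sums of 385 to 457, 412 to 451 and 489 to 535, and PECAM1 was not past the call in any comparison. Blood markers were above background for CD68 and HBB of 5 with a probe, with sums of 1186 to 1324, 936 to 1094 and 1265 to 1429. CD68 fell by 0.54 with sh-34, and HBB rose by 0.51 with sh-34 and 0.41 with sh-35. PTPRC, VWF and CDH5 were above background on no array. The part of these marker changes in the changes of LOX, collagen IV, SPARC and THBS1 was not tested. In RNA of whole cultures, fewer cells of a type and less RNA per cell cannot be told apart.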

How the data were processed

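Members and lists were chosen with earlier results of these data known. Total RNA was extracted with Trizol and labelled with biotin, per the labels' protocols; BeadStudio and Partek are named in the submitters' processing notes without versions. The deposited signal table holds an intensity and a detection p-value per probe and sample, per the file headers. The deposited series matrix holds log2 values, used as an alternative. The authors' deposited table holds a p-value, a ratio and a fold change for 358 probes, and its remaining score columns were not used. The scaling between arrays is not given in the sources used here. Annotation gave 28098 probes 1 symbol and 13 several, and did not list 20692; 28059 Entrez identifiers matched RefSeq names, and 0 symbols were updated.

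Intensities were background corrected with limma 3.58.1 in R 4.3.3 (normal-exponential model, noise from the detection p-values, offset 16), taken to log2 and quantile normalised. Probes with detection p under 0.01 in at least 3 of 9 arrays were tested (12866), and the brightest probe of each gene was kept (8931 genes). 1 limma model held the 3 group means (6 residual and 5.42 prior degrees of freedom), with Benjamini-Hochberg adjustment over all genes. A gene with no array above background in a group has only a bound, set against the lowest signal called above background. The limma fit was tested on simulated data, and the background correction, normalisation, filter and bounds were not.

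Named genes were all members, RND1, up to 3 rises and 3 falls of largest change per list and comparison, of which not all are printed, and the genes nearest in profile. Alternatives were other normalisations, offsets, filters, probe means, the series matrix, a replicate block, only the compared groups, and leaving out each sample. Figures used Python 3.11.15 with numpy 2.4.6, pandas 2.3.3 and matplotlib 3.10.9.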

Additional observations from a re-analysis of the deposited data

Results flagged for a closer look

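LOX, SPARC and THBS1 stood out because the difference between the hairpins was itself past the call. For LOX, sh-35 minus sh-34 was 1.43 on the log2 scale, and LOX rose with both hairpins.

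For SPARC the log2 difference, sh-35 minus sh-34, was −0.56. SPARC rose by 0.48 with sh-34, and its change with sh-35, −0.08 with an SE of 0.10, was not past the call.

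For THBS1 the log2 difference was 0.94, from −0.51 with sh-34 and 0.43 with sh-35, both past the call. The sh-35 call was lost with median scaling.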

How the results depend on the processing

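All 180 alternative counts for the 9 counts of all genes, of members and of other matrix genes stayed within 1.5 times the reported count. Of 420 alternative values of the members' log2 changes, 407 kept their direction and side of the threshold. The TGFBI change with sh-35 was −0.060 with median scaling, −0.024 with the series matrix and −0.046 to 0.10 when 1 sample was left out. The TNC change with sh-35 ranged from −0.090 to 0.23 on leaving out 1 sample. The THBS1 change with sh-35 was 0.29 with median scaling, past the threshold no longer. Calls were gained for TGFBI between the hairpins in 6 alternatives (0.23 to 0.24), for TGFBI with sh-34 without scramble replicate 1 (−0.29), and for COL4A2 between the hairpins with the series matrix (0.36). With the replicate block, 3295, 3688 and 3770 genes were called in place of 3347, 3731 and 3814, and members between the hairpins were 4 in place of 3; same-numbered samples shared only a number, with deviations correlating by −0.02 to 0.05. The share of called genes that were higher was 50.6%, 48.8% and 48.6% as reported, 39.4%, 40.9% and 50.9% with median scaling, and 37.8%, 48.1% and 60.4% with the series matrix. Of 360 alternative list counts, 31 moved by more than 1.5 times; basement membrane calls with sh-34 ranged from 2 to 5 on leaving out 1 sample. Of 78 gene and comparison pairs named for the lists by the rule, 55 kept their call in every alternative and 0 changed sign. The cause of these shifts was not tested. Signal over background limits LOXL1, LOXL2 and LOXL4, for which no change could be measured, and the dimmer TNC probe, for which sh-34 has only a bound.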
